A study of Mus musculus with 41 samples.

Results

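Numbered zinc finger protein genes carry the symbol Zfp and a number. The count tables hold 374 such symbols. Zfp36, Zfp42 and Zfp352 were set aside, the other 371 were ranked by mean counts-per-million value (CPM) of the column total in the 4 wild-type (WT) libraries at 0 h, and the first 200 were kept, of 51410 gene identifiers in all. The members were thus chosen by their level in those 4 libraries, which is given as a description. The study compared Caprin1 knockout (KO) cells, clone 2 and clone 4, with WT mouse embryonic stem cells of the R1 line; CAPRIN1 is a cytoplasmic RNA-binding protein of stress granules. Cells of all groups spent 4 days in 1 µM retinoic acid, which drives these cells to differentiate, without the self-renewal cytokine LIF, and were then given 2 µg/ml α-amanitin, which blocks RNA polymerase II, and harvested at 0, 2, 4 or 8 h. The labels list 2 RNA-seq libraries per clone and time and 4 of WT at each time, 32 in all; 31 were analysed here, since clone 4 replicate 1 at 0 h was not analysed, which leaves replicate 2 alone in that group. Each clone is 1 line, and how the knockout was made is not given in the sources used here. The labels do not say whether libraries of a group came from separate cultures, so the p-values measure the spread between these libraries, which may be technical.

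Zinc finger proteins of the C2H2 kind bind DNA, and some RNA, through repeated fingers that each hold a zinc ion. Many of them carry a KRAB domain, which recruits TRIM28 and, through it, the H3K9 methyltransferase SETDB1, and in embryonic stem cells such proteins silence retroelements and keep methylation at imprinted regions. The KRAB genes multiplied by local duplication and lie in clusters. Other numbered genes encode unrelated proteins that share only the finger fold, among them co-repressors, ubiquitin ligases and RNA-binding proteins. With transcription blocked, RNA present later was mostly made before the drug, but neither the block nor the RNA amount per cell was measured in these files, and a level here is a share of each library.

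Total counts ranged from 3.95 to 31.6 M (mega-counts) at 0 h and from 3.46 to 10.6 M at 2, 4 and 8 h, in tables that were deposited separately per time, so that time and table cannot be told apart in any change over time, 8 h against 2 h included. Caprin1 had 105.7 to 195.8 CPM in clone 2, 989.1 to 1223 CPM in the libraries labelled clone 4 and 765.1 to 1159 CPM in WT. The Caprin1 RNA level in the libraries labelled clone 4 thus overlapped with that of WT. CAPRIN1 protein and the genotype were not examined here, so whether the label holds was not tested. Every direction given for these libraries refers to the label only. The WT 0 h libraries stood in pairs: over the 200 genes, deviations from their mean correlated at 0.31 between replicates 1 and 2 and at 0.71 between replicates 3 and 4. Across these pairs the correlations were -0.77 to -0.73. Deviations from a shared mean cancel out over the 4 libraries, so negative values across the pairs arise in part by construction. Replicate 1 was the library with 3.95 M counts. All 6 pluripotency markers and all 6 retinoic acid response markers examined averaged at least 1 CPM in each line.

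By the level that ranked them, the 200 genes spanned 13.3 to 600.7 CPM over the column total, with a median of 32.8 CPM. The last 3 inside were Zfp952 (13.36 CPM), Zfp213 (13.27 CPM) and Zfp2 (13.25 CPM), and the first 3 outside were Zfp950 (13.15 CPM), Zfp672 (13.06 CPM) and Zfp954 (12.74 CPM). The 3 highest were Zfp106 (600.7 CPM), an RNA-binding protein needed by motor neurons, Zfp568 (381.6 CPM), a KRAB repressor of a placental promoter of Igf2, and Zfp609 (275.1 CPM). Per kilobase of deposited gene length, Zfp609 stood first at 31.1 CPM per kb, ahead of Zfp703 at 25.4, Zfp106 at 24.6 and Zfp568 at 23.8 CPM per kb, and the median of all 200 was 3.56 CPM per kb. All 200 passed the filter on low counts. They lie on 20 chromosomes, with 48 on chromosome 7, 21 on chromosome 17 and 17 on chromosome 8. A gene was placed in a cluster where at least 2 other numbered Zfp genes of the tables start within 1 Mb, which held for 110 genes and left 90 apart. Clustered genes had a median of 3.35 CPM per kb in WT at 0 h, and genes that stand apart 4.35 CPM per kb.

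RefSeq promoters (GRCm38.p6, 250 bases before to 50 after the start) matched 160 of the 200 genes. They are shown for 3 pairs of genes that are named below. Zfp503 and Zfp365 were low in clone 2. Zfp979 with Zfp985 and Zfp975 with Zfp976 are 2 pairs of neighbours with similar values. Capitals mark CG, which reads the same on both strands.
Zfp503: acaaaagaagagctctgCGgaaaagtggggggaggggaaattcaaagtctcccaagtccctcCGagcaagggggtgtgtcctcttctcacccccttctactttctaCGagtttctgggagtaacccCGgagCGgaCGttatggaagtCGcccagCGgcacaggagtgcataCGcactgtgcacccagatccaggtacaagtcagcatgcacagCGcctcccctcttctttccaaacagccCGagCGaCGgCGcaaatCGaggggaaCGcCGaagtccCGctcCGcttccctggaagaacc
Zfp365: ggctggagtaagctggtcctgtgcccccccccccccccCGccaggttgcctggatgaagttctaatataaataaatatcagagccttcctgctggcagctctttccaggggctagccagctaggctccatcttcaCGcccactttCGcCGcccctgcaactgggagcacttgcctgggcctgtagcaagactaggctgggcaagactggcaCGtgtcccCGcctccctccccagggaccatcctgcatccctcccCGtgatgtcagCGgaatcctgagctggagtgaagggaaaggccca
Zfp979: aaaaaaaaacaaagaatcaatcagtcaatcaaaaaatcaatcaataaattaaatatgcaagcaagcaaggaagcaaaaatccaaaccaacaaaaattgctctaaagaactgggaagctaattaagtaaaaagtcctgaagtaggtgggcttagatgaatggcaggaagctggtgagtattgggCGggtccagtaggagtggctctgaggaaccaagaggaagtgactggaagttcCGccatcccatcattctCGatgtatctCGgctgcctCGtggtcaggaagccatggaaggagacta
Zfp985: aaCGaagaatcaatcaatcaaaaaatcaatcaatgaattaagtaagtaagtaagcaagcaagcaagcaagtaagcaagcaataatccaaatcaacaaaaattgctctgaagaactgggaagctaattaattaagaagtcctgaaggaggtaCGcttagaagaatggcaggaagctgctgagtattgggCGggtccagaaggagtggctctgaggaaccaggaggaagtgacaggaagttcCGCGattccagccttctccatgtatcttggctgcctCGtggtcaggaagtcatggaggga
Zfp975: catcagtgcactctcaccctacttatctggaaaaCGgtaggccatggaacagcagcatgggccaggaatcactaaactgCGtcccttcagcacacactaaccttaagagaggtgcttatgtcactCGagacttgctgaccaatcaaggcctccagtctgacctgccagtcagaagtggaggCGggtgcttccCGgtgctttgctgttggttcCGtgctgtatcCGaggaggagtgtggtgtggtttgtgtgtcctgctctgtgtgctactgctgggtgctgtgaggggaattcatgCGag
Zfp976: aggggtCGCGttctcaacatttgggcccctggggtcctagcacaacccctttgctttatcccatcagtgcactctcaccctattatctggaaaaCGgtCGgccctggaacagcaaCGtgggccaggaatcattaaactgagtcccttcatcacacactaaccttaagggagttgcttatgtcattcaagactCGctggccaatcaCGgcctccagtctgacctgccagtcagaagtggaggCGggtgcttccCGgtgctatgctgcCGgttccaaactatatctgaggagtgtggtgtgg
Their positions are chr14:21989552-21989851, minus strand for Zfp503; chr10:67912613-67912912, minus strand for Zfp365; chr4:147642459-147642758, minus strand for Zfp979; chr4:147553027-147553326, plus strand for Zfp985; chr7:42692669-42692968, minus strand for Zfp975; and chr7:42642555-42642854, minus strand for Zfp976. The windows of Zfp979 and Zfp985 were identical at 260 of 316 aligned columns (82.3%). Those of Zfp975 and Zfp976 were identical at 217 of 361 (60.1%). Those of Zfp503 and Zfp365, which are not neighbours, were identical at 169 of 353 (47.9%). Each window holds 300 bases, so these columns include gaps, where a base has no partner. The Zfp975 window starts with bases found well inside that of Zfp976, so gaps at the ends lower that percentage. Identity within the overlap alone was not measured, so these percentages do not rank the pairs by similarity. Zfp503 held 19 CG, a count that 28.1% of all promoters of this length in the table reached, and Zfp979 held 5, which 62.0% reached. The median CG count was 17 over the 199 promoters of these genes (13 in clusters, 19 apart) and 7 over all 32851 promoters of the table.

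The first comparison asked how the levels changed late in the α-amanitin course, at 8 h against 2 h, in libraries that the ranking did not use. In WT, 88 of the 200 genes rose and 27 fell, by a median log2 change of 0.21, where 21.2% of the 15850 genes tested rose and 21.3% fell (edgeR quasi-likelihood test, false discovery rate under 0.05, median 0.00). Among the 9202 genes at or above the level of the 200th member, 25.9% rose and 25.9% fell. Of the 110 clustered genes, 55 rose and 8 fell, with a median of 0.33, against 33 and 19 of the 90 that stand apart, with a median of 0.05. The clustered genes also had lower levels at 0 h, with a median of 26.4 CPM against 49.2 CPM for genes apart. Over the 200 genes, the WT change correlated with that level at -0.32 (Spearman). The part of level in the contrast of clustered genes and genes apart was not tested. In clone 2, 49 of the 200 rose and 31 fell (median 0.04, all genes 12.6% and 13.2%), with 26 and 9 of the clustered genes. In the libraries labelled clone 4, 40 rose and 20 fell (median 0.13, all genes 9.1% and 11.3%), with 20 and 6 of the clustered genes. Each clone has 2 libraries per time against 4 in WT, and whether the clustered genes as a group changed differently between the lines was not tested. The counts of the clones depended on single libraries: without clone 2 replicate 1 or replicate 2 at 2 h, 53 and 49 genes were called in place of 80, and without 1 of the libraries labelled clone 4, 28 (2 h replicate 1), 29 (2 h replicate 2), 39 (8 h replicate 1) and 32 (8 h replicate 2) in place of 60. The clustered genes called were then 22 in either case in clone 2, in place of 35, and 13 to 18 in the libraries labelled clone 4, in place of 26. Scaled by library totals, the libraries labelled clone 4 gave 52 rises and 14 falls.

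The summed level of the 110 clustered genes, scaled by trimmed mean of M-values (TMM), was 3659 and 3859 CPM in clone 2 at 8 h, against 3824 and 3934 CPM at 2 h. In the libraries labelled clone 4 it was 3812 and 3873 CPM at 8 h, against 3673 and 3723 CPM at 2 h. In WT it was 3987 to 4153 CPM at 8 h, against 3328 to 3612 CPM at 2 h. The 8 h libraries lay above all 2 h libraries in WT and in those labelled clone 4, and overlapped with them in clone 2. At 0 h the WT sum itself split with the pairs of libraries, at 3576 and 3310 CPM in replicates 1 and 2 and 4051 to 4109 CPM in replicates 3 and 4. The 90 genes apart summed to 6163 to 6397 CPM at 8 h, against 6172 to 6356 CPM at 2 h in WT, so the ranges overlapped. In the libraries labelled clone 4 they summed to 5633 and 5688 CPM at 8 h, against 5607 and 5691 CPM at 2 h, within the 2 h range. In clone 2 they summed to 5447 and 5661 CPM at 8 h, against 5759 and 5917 CPM at 2 h, so both 8 h libraries lay below both 2 h libraries.

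**Figure D1:**
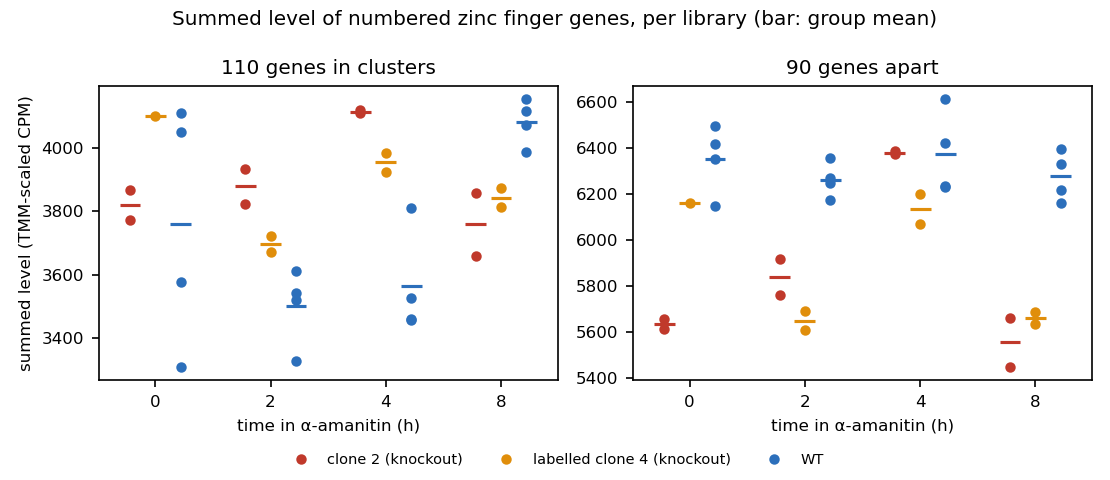
Summed TMM-scaled CPM (vertical axes, which do not start at 0) of the 110 clustered genes (left) and the 90 genes apart (right) in every library, by hours in α-amanitin; points are libraries, bars are group means, and clone 2, the libraries labelled clone 4 and WT stand from left to right at each time. The WT sum of clustered genes is 3987 to 4153 CPM at 8 h, above all WT libraries at 2 h, and spreads from 3310 to 4109 CPM at 0 h.

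**Figure D2:**
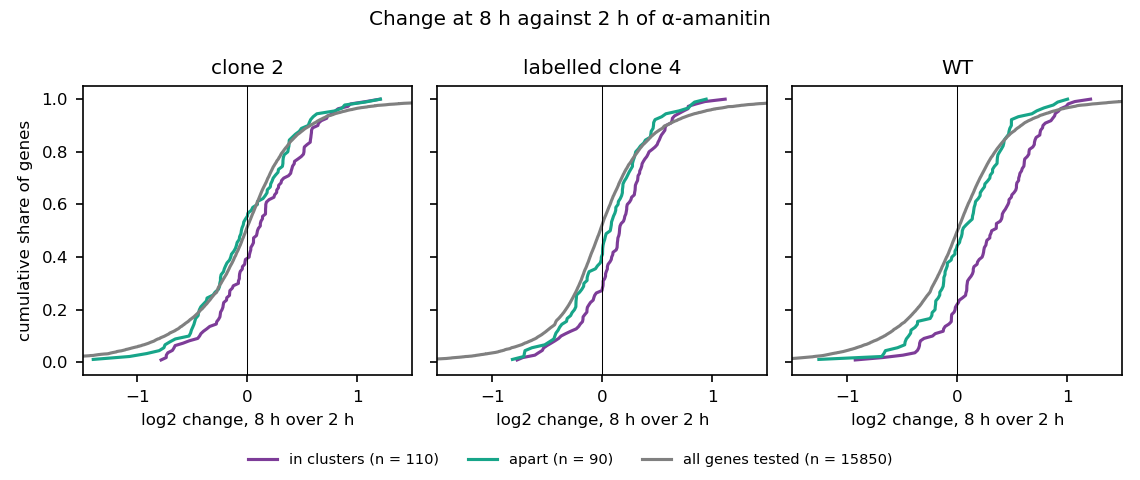
Cumulative share of genes (vertical axis) by log2 change at 8 h over 2 h (horizontal axis, cropped at 1.5 either way) for clustered genes, genes apart and all genes tested, in clone 2, the libraries labelled clone 4 and WT. In WT the curve of the clustered genes lies to the right of that of all genes, with medians of 0.33 and 0.00.

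The changes of the 3 lines rest on separate libraries and can be set against each other. The 8 h libraries of all 3 lines share a table, as do those at 2 h. A difference between these tables would thus be common to the 3 lines. Of the 200 genes, 28 rose in all 3 lines, a share of 14%, against 3.93% of all genes tested and 5.52% of the genes at the level floor, and 15 of the 28 lie in clusters. In all 3 lines 13 genes fell, a share of 6.5% against 5.25% of all genes and 7.54% of those at the floor, and 4 of the 13 lie in clusters. Genes named from these counts were chosen after their values were seen. The largest mean rises were in Zfp473 (log2 1.21 in clone 2, 0.95 in the libraries labelled clone 4 and 0.88 in WT), Zfp605 (0.86, 0.81 and 1.00 in the same order) and Zfp60 (0.78, 0.74 and 1.01). The largest mean falls were in Zfp827 (-1.40, -0.82 and -0.65), Zfp703 (-0.53, -0.71 and -1.26) and Zfp628 (-0.66, -0.53 and -0.93). Zfp462 alone was called in opposite directions in 2 lines, at -0.26 in clone 2 and 0.15 in WT, and its WT call was lost without any 1 of 5 WT libraries (log2 0.12 to 0.15) and with DESeq2.

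In all, 9 clusters held 5 or more of the 200 genes. Their WT splits at 8 h against 2 h stand beside 21.2% of all genes that rose and 21.3% that fell. The 10 genes of the cluster on chromosome 7 that holds Zfp568, Zfp27 and Zfp74 (GRCm38, 29768552 to 30169775) had medians of 0.31 in clone 2, 0.31 in the libraries labelled clone 4 and 0.45 in WT, and 6 of them rose and 1 fell in WT; the 1 that fell was Zfp568. The 5 genes of the chromosome 9 cluster with Zfp266 and Zfp26 (19622038 to 20605404) had medians of 0.39, 0.35 and 0.57 in the same order, with 4 up and 1 down in WT. On chromosome 15, the 5 genes with Zfp251 and Zfp647 (75615200 to 76925693) had medians of 0.92, 0.32 and 0.52, with 4 up and none down in WT. The 5 genes on chromosome 6 with Zfp398 and Zfp777 (47815536 to 48621548) had medians of -0.24, 0.26 and 0.15, with 2 up and 2 down in WT. All 9 medians were above 0 in WT, 8 in the libraries labelled clone 4 and 6 in clone 2. Genes of a cluster share sequence and, as near copies, may share reads, so they are not independent, and the counting rule for such reads is not given in the sources used here.

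**Figure D3:**
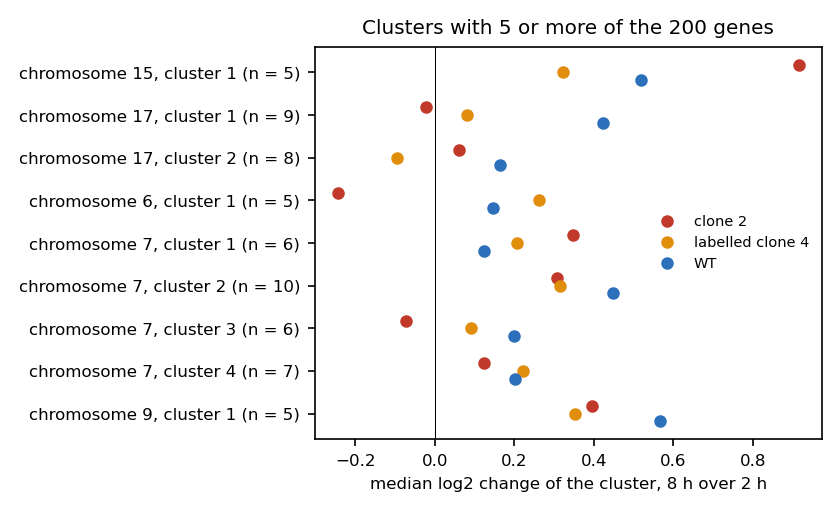
Median log2 change at 8 h over 2 h (horizontal axis) of each of 9 chromosomal clusters (rows, with the number of genes in each) in clone 2, the libraries labelled clone 4 and WT. The 9 WT medians lie between 0.12 and 0.57, and those of clone 2 between -0.24 and 0.92.

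Among genes with known roles, 35 of the 39 listed were members, of which 13 rose and 12 fell in WT at 8 h against 2 h (all genes 21.2% and 21.3%, those at the level floor 25.9% each way). Zfp703, a co-repressor of the NET family, had 37.6, 36.0, 39.4 and 43.4 CPM at 8 h, against 92.6, 95.1, 90.4 and 96.9 CPM at 2 h in WT (log2 -1.26, SE 0.08, edgeR adjusted p = 3.84e-15). Its WT level at 4 h, 159.4, 147.8, 163.4 and 157.6 CPM, lay above both. The WT 8 h libraries were the lowest, and none overlapped with an earlier WT library. In clone 2 it had 22.1 and 23.3 CPM at 8 h, against 30.8 and 35.0 CPM at 2 h, and in the libraries labelled clone 4 42.2 and 38.9 CPM, against 61.2 and 71.5 CPM. Zfp503, its relative in the same family, had 64.0, 61.1, 63.0 and 56.6 CPM at 8 h, against 91.1, 88.9, 91.3 and 85.0 CPM at 2 h in WT (log2 -0.54, SE 0.09, edgeR adjusted p = 1.35e-05), again with the highest level at 4 h (141.1, 126.6, 142.4 and 137.6 CPM). With both clones pooled as KO in the fit, the Zfp503 change in WT kept its size but not its call (log2 -0.54, edgeR adjusted p = 0.355).

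A further set was lower at 8 h than at 2 h. Their 0 h levels come from the libraries that ranked the genes and are a description. Zfp644, a partner of the H3K9 methyltransferases G9a and GLP, had 113.8, 104.5, 144.1 and 141.3 CPM at 0 h, 214.3, 238.6, 235.2 and 246.7 CPM at 2 h, 187.7, 181.2, 200.8 and 222.4 CPM at 4 h and 190.4, 166.3, 171.4 and 169.1 CPM at 8 h in WT. The 8 h level was below the 2 h level (log2 -0.42, SE 0.07, edgeR adjusted p = 2.79e-05). Zfp131, a BTB zinc finger factor, and Zfp335, a regulator of neural progenitors, fell at 8 h against 2 h as well (log2 -0.36 and -0.68). Zfp622, a ribosome maturation factor, fell in all 3 lines at 8 h against 2 h (-0.37 in clone 2, -0.33 in the libraries labelled clone 4 and -0.48 in WT).

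Rises between 2 h and 8 h in WT were found for Zfp326, of the DBIRD complex that couples elongation and splicing (log2 0.49, SE 0.10, edgeR adjusted p = 8.26e-05). It had 61.7, 61.8, 64.8 and 58.0 CPM at 8 h, against 40.4, 46.2, 45.2 and 42.9 CPM at 2 h, with no overlap. Zfp449 had 24.9, 21.8, 24.3 and 21.1 CPM at 8 h, against 13.6, 10.9, 11.7 and 12.6 CPM at 2 h (log2 0.91, SE 0.12, edgeR adjusted p = 1.38e-07), and rose in clone 2 (0.80) and in the libraries labelled clone 4 (0.48) too. Other rises in WT were Zfp638, which recruits the HUSH complex to unintegrated retroviral DNA (0.49), Zfp451, a SUMO ligase (0.37), Zfp148, a GC-box binding factor (0.45), Zfp207, a spindle protein (0.32), Zfp369, which binds a neurotrophin receptor (0.68), and Zfp706, a regulator of exit from self-renewal (0.28). Among KRAB proteins of imprinted regions, Zfp445 rose by 0.23 (adjusted p = 0.016, edgeR), a call lost without replicate 1 at 2 h or at 8 h (log2 0.18 and 0.19), and Zfp57 was not called (0.15, adjusted p = 0.0695). Zfp568, a KRAB repressor, fell by 0.20 on the log2 scale in WT, and Zfp809, a KRAB repressor of retroviruses that use a proline tRNA primer, fell by 0.33. Both calls were lost with the clones pooled as KO in the fit (edgeR adjusted p = 0.369 and 0.112), as was that of Zfp445 (0.0584).

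**Figure D4:**
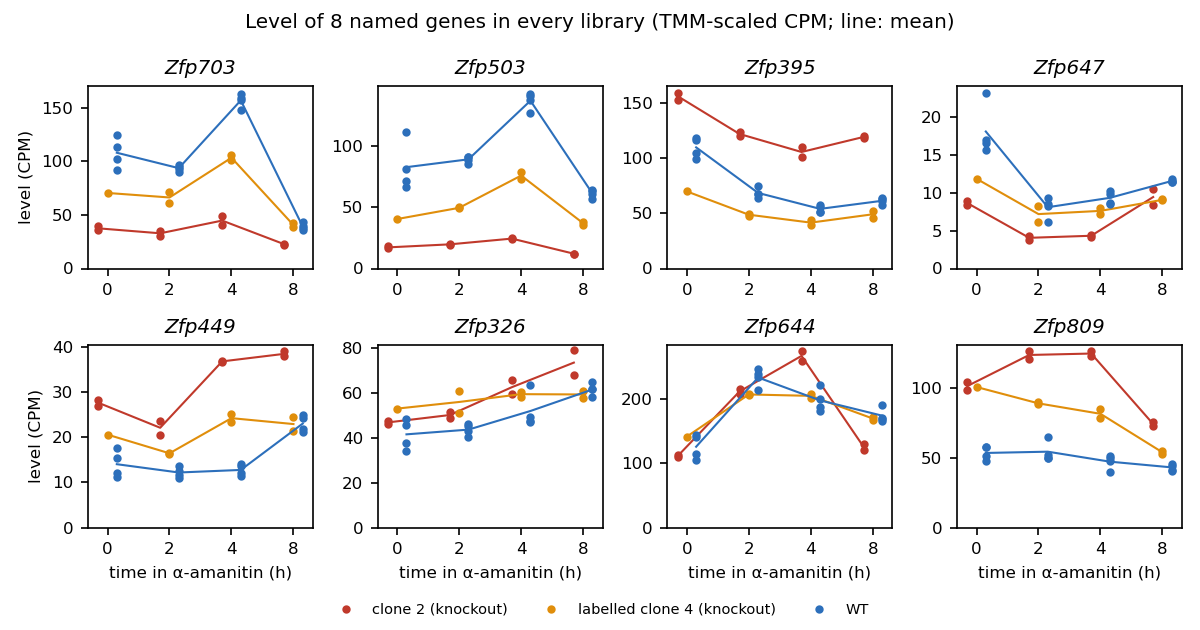
TMM-scaled CPM (vertical axes from 0) of 8 named genes by hours in α-amanitin (categories on the horizontal axis) in every library; points are libraries, lines join group means, and clone 2, the libraries labelled clone 4 and WT are offset from left to right. Zfp703 in WT at 8 h lies at 36.0 to 43.4 CPM, below every earlier WT library, and Zfp449 in WT at 8 h lies above every earlier WT library.

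Comparisons with 0 h use the libraries that ranked the genes, and these libraries stand in pairs, so their counts are given without reading a direction from them. In WT, 22 genes were higher and 78 lower at 2 h against 0 h (all genes 14.1% and 13.7%), 41 and 88 at 4 h (24.8% and 27.4%), and 46 and 40 at 8 h (25.7% and 25.4%). Scaled by library totals, the splits were 13 and 100 at 2 h, where the median of all genes moved to -0.12, and 33 and 45 at 8 h. Without WT 0 h replicates 3 and 4 the splits became 55 and 78 at 2 h, 69 and 68 at 4 h and 91 and 49 at 8 h; without replicates 1 and 2 they became 20 and 98, 45 and 111 and 40 and 49. In clone 2, 18 were higher and 26 lower at 8 h against 0 h (12.6% and 15.8%), and 25 in all were called without clone 2 replicate 1 at 8 h. In the libraries labelled clone 4, with 1 library at 0 h that is assumed to vary like the other groups, 3 were higher and 24 lower (8.57% and 10.9%). As a description, the lowest WT log2 differences of 8 h from 0 h were, among the genes counted there, those of Zfp703 (-1.45), Zfp827 (-0.88), Zfp941 (-0.85), Zfp395 (-0.83), Zfp692 (-0.79), Zfp423 (-0.70), Zfp219 (-0.63) and Zfp647 (-0.59). The highest were those of Zfp449 (0.68), Zfp975 (0.62), Zfp976 (0.62), Zfp326 (0.56), Zfp597 (0.55), Zfp131 (0.54), Zfp229 (0.53) and Zfp120 (0.51). Zfp120 stood at 0.22 without WT 0 h replicate 2 and at 0.16 without replicates 1 and 2, and Zfp975 at 0.23 without replicates 1 and 2. With no filter on low counts Zfp975 and Zfp976, at 0.56 each, were no longer among the genes counted. With both clones pooled as KO in the fit, Zfp827 (-0.89) and Zfp395 (-0.84) kept their size but were no longer counted either.

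Zfp647 and Zfp395 were highest at 0 h in WT, in the libraries that ranked the genes, so this is a description. At 2, 4 and 8 h every WT library had Zfp647 under the level of rank 200 (13.25 CPM). Its place among the 200 thus rests on its 0 h level. Zfp647 had 23.2, 17.1, 16.6 and 15.7 CPM at 0 h, 9.40, 8.54, 8.30 and 6.21 CPM at 2 h, 8.72, 10.3, 8.54 and 9.85 CPM at 4 h and 11.4, 11.4, 11.6 and 11.8 CPM at 8 h in WT. Every 8 h library lay above the 2 h and 4 h libraries and below the 0 h libraries. Zfp395 had 118.3, 115.8, 99.4 and 104.6 CPM at 0 h, 74.7, 67.8, 67.5 and 63.4 CPM at 2 h, 51.3, 56.0, 57.3 and 51.1 CPM at 4 h and 63.0, 60.9, 63.5 and 57.5 CPM at 8 h in WT.

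The next comparison asked how the lines differ, over the mean of 2, 4 and 8 h. Against WT, 68 of the 200 genes were higher and 70 lower in clone 2 (all genes 34.2% and 34.5%), close to the share of all genes. In the libraries labelled clone 4, 27 were higher and 72 lower (24.5% and 25.7%). The 200 genes were chosen by their WT level at 0 h. A gene high in WT and low in a clone could thus enter, while the reverse could be left out. The part of that choice in the splits against WT was not tested, at 2, 4 and 8 h or with the clones pooled as KO. Shares among genes at the level floor are not given for these comparisons. Genes apart were called lower more often than higher, at 25 higher and 40 lower of 90 in clone 2 and 9 and 41 in the libraries labelled clone 4, while clustered genes split 43 to 30 and 18 to 31. Scaling by library totals alone, in which the median of all genes in clone 2 moves to -0.15, gave 38 higher and 100 lower in clone 2, and 19 and 92 in the libraries labelled clone 4. At 0 h, 38 were higher and 61 lower in clone 2 (30.6% and 29.4%) and 30 and 41 in the library labelled clone 4 (19.7% and 18.4%). Those values rest on the ranking libraries, and library totals gave 22 and 96 and 16 and 53.

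Marker levels moved with the lines. The summed level of 7 primitive endoderm markers was 41328 to 47979 CPM in clone 2, 15000 to 20137 CPM in the libraries labelled clone 4 and 10138 to 12411 CPM in WT, with all 7 detected in each line. The summed level of 8 fibroblast feeder markers was 492.5 to 743.8 CPM in clone 2, 1980 to 2517 CPM in the libraries labelled clone 4 and 812.1 to 1395 CPM in WT, and Lum stayed under 1 CPM in every clone 2 and WT library. The 6 retinoic acid response markers summed to 308.5 to 1017 CPM over all times in clone 2 (median 722.5), 149.96 to 639.6 CPM in the libraries labelled clone 4 (median 320.6) and 106.4 to 621.1 CPM in WT (median 300.0). The 6 pluripotency markers summed to 438.1 to 760.0 CPM in clone 2 (median 605.2), 380.96 to 630.6 CPM in the libraries labelled clone 4 (median 459.2) and 293.3 to 491.2 CPM in WT (median 405.4), so these ranges overlapped between the lines. The part of these markers in the differences between lines was not tested. In bulk RNA, fewer cells of a type and less RNA per cell cannot be told apart.

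Of genes lower in both clones, Zfp521, an early neural regulator, differed by -2.58 (SE 0.10) in clone 2 and by -0.82 (SE 0.08) in the libraries labelled clone 4. Zfp503 had 11.9 and 12.2 CPM in clone 2, 38.1 and 35.8 CPM in the libraries labelled clone 4 and 64.0, 61.1, 63.0 and 56.6 CPM in WT at 8 h. The 3 lines did not overlap at 2, 4 or 8 h, and the differences from WT were -2.34 (SE 0.08, edgeR adjusted p = 3.26e-23) and -0.81 (SE 0.07, adjusted p = 4.99e-12). Zfp618 (-2.14 and -0.66) and Zfp629 (-2.01 and -0.70) were lower in both as well. Zfp365 had 5.78 and 6.51 CPM in clone 2, 29.6 and 33.6 CPM in the libraries labelled clone 4 and 30.98, 36.8, 31.5 and 32.2 CPM in WT at 8 h. Its differences were -2.49 (SE 0.09) in clone 2 and -0.17 (SE 0.06, edgeR adjusted p = 0.0278) in the libraries labelled clone 4. The call in the libraries labelled clone 4 was lost when any 1 of 7 libraries was left out (log2 -0.17 to -0.14).

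Of genes higher in both, Zfp809 had 120.8 and 126.3 CPM in clone 2, 88.2 and 89.6 CPM in the libraries labelled clone 4 and 49.96, 52.2, 65.2 and 49.97 CPM in WT at 2 h. Both clones lay above all WT libraries, with differences of 1.13 (SE 0.05) and 0.61 (SE 0.06). Zfp948 had 82.9 and 87.3 CPM in clone 2, 65.9 and 62.3 CPM in the libraries labelled clone 4 and 35.2, 33.0, 45.8 and 32.4 CPM in WT at 2 h (1.24, SE 0.11, and 0.80, SE 0.11). The neighbours Zfp979 (0.85 and 0.92) and Zfp985 (0.83 and 1.00), whose promoters are printed above, were higher in both, with an SE of 0.22 for each of the 4 values. Reads could be split between such near copies. With both clones pooled as KO, Zfp979 differed from WT by 1.12 at 2 h and 0.29 at 8 h, and Zfp985 by 0.97 and 0.41. Neither was called at 8 h (edgeR adjusted p = 0.283 and 0.0936). The difference in change at 8 h against 2 h was not called for either gene in either clone. Zfp449 was higher by 1.05 in clone 2 and 0.45 in the libraries labelled clone 4.

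Genes of the role list give further differences from WT over 2, 4 and 8 h, in clone 2 and then in the libraries labelled clone 4. Zfp423, a regulator of neural and fat cell fate, was lower in both (-1.44 and -0.58), as were Zfp703 (-1.37 and -0.35) and Zfp687, of the Z3 chromatin complex (-0.33 and -0.59). Zfp91, an atypical ubiquitin ligase, was higher in both (0.58 and 0.31). With both clones pooled as KO, Zfp91 differed from WT by 0.58 at 2 h and by 0.12 at 8 h, where it was not called (edgeR adjusted p = 0.137). Its difference in change at 8 h against 2 h was -0.63 in clone 2 and -0.31 in the libraries labelled clone 4, neither called. Zfp568 was lower in clone 2 (-0.46), and in the libraries labelled clone 4 it stood at 0.01 (edgeR adjusted p = 0.778). At 8 h it had 214.6 and 219.3 CPM in clone 2, 373.9 and 380.0 CPM in the libraries labelled clone 4 and 383.3, 381.1, 392.4 and 396.6 CPM in WT, so clone 2 lay below the others and the other 2 lines were close to each other. Zfp462, a chromatin protein of pluripotent cells, was likewise called lower in clone 2 (-0.61) and stood at -0.08 in the libraries labelled clone 4 (adjusted p = 0.104, edgeR). Zfp335 (-0.39) and Zfp592, also of the Z3 complex (-0.24), were called lower in the libraries labelled clone 4 and stood at -0.03 and 0.05 in clone 2, where neither was called.

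By cluster, the 7 genes on chromosome 7 at 127233061 to 127885996 (GRCm38) include Zfp629, Zfp646 and Zfp668. Their median difference from WT was -0.21 in clone 2, with 1 higher and 5 lower. In the libraries labelled clone 4 it was -0.31, with none higher and 7 lower. Of all genes tested, 34.2% were called higher and 34.5% lower than WT in clone 2, and 24.5% and 25.7% in the libraries labelled clone 4. The 8 genes on chromosome 17 at 32765496 to 33631716, which include Zfp871 and Zfp101, had medians of 0.31 in clone 2, with 5 higher and 1 lower, and 0.09 in the libraries labelled clone 4, with 1 higher and 1 lower. The other chromosome 17 cluster, at 21008941 to 23599755 with Zfp948 and Zfp229, had medians of 0.30, with 5 higher and 2 lower, and 0.11, with 3 higher and 1 lower. Scaled by library totals these medians kept their signs, at -0.36 and -0.37 for the chromosome 7 genes. They were 0.16 and 0.03 for the first chromosome 17 cluster and 0.15 and 0.05 for the other. The first chromosome 17 cluster then had 3 higher and 2 lower in clone 2. In the libraries labelled clone 4 it had none higher and 2 lower. The other had 4 higher and 3 lower in clone 2, and 3 and 1 in the libraries labelled clone 4. Median differences of both signs occurred among the clusters in each clone. Differences between clusters were not tested.

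Set directly against clone 2, the libraries labelled clone 4 had 44 of the 200 genes higher and 58 lower (30.2% and 29.8% of all genes), and 57 higher and 38 lower when scaled by library totals, so the balance of the split turned with the scaling. Zfp365 was higher by 2.32 (SE 0.10), Zfp827, known in human cells as a recruiter of the NuRD complex to telomeres, by 1.81, Zfp521 by 1.76, Zfp503 by 1.53, Zfp618 by 1.48 and Zfp629 by 1.30. The lower genes were led by Zfp395 (-1.32, SE 0.05), followed by Zfp652 (-0.71), Zfp507 (-0.67), Zfp9 (-0.63), Zfp868 (-0.60) and Zfp655 (-0.59). Zfp395 had 52.0 and 46.1 CPM in the libraries labelled clone 4 and 119.8 and 118.1 CPM in clone 2 at 8 h, so that the clones lay on opposite sides of WT. Its differences from WT were 0.92 in clone 2 and -0.40 in the libraries labelled clone 4.

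**Figure D5:**
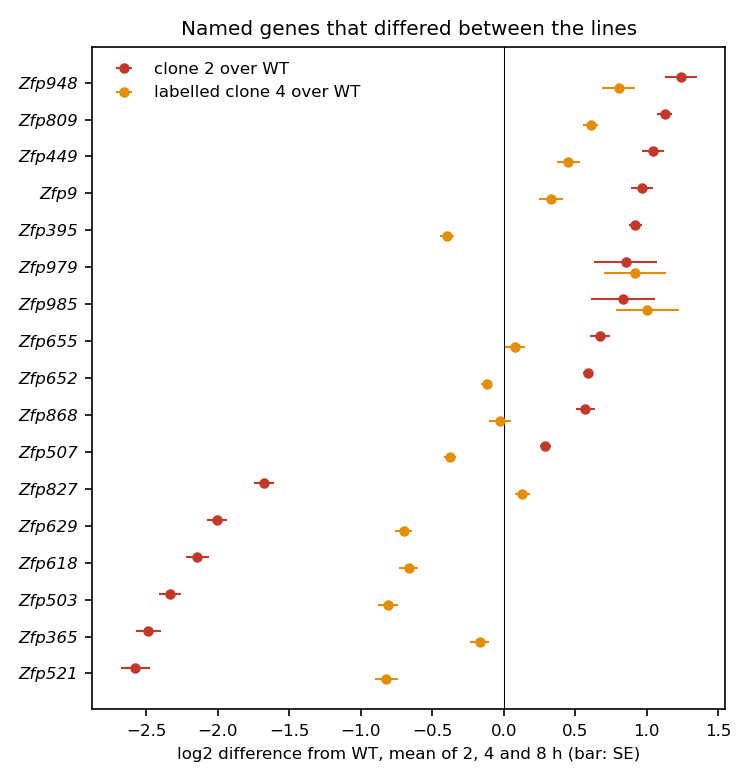
Log2 difference from WT over the mean of 2, 4 and 8 h (horizontal axis, bars are SE) of 17 named genes (rows) in clone 2 and in the libraries labelled clone 4. Zfp521 lies furthest left in both, at -2.58 and -0.82, while Zfp395 lies on opposite sides of 0.

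With both clones pooled as KO and genotype as the only term, a fit in which libraries of 1 clone count as separate samples, 11 genes were higher and 25 lower in KO than in WT at 0 h, 29 and 34 at 2 h, 31 and 35 at 4 h, and 6 and 32 at 8 h. Of all genes tested, 13.9% were higher and 12.2% lower at 0 h, 17% and 14.6% at 2 h, 19.4% and 16.9% at 4 h, and 10.3% and 7.06% at 8 h. Scaled by library totals, the splits were 3 and 41, 23 and 44, 21 and 59, and 3 and 54. At 0 h the 36 calls became 12 and 10 without clone 2 replicate 1 or 2, 67 without the library labelled clone 4, 15 and 20 without WT replicate 1 or 2, and 0 without both WT replicates 1 and 2 (57 of 200 at an unadjusted p under 0.05; edgeR; DESeq2 on all libraries called 43). At 2 h the 63 calls became 39 without WT replicate 2, and at 4 h the 66 became 43 without WT replicate 1. At 8 h the 38 calls became 25 and 21 without clone 2 replicate 1 or 2, and 9, 11, 10 and 14 without WT replicates 1 to 4. A replicate block, although the numbers did not pair the libraries, left 0 calls at every time (edgeR; 76, 53, 54 and 29 genes at an unadjusted p under 0.05 at 0, 2, 4 and 8 h; DESeq2 without the block called 43, 61, 67 and 49).

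The difference in change between the lines, clone minus WT, was called for few genes. For 8 h against 2 h it was called for 12 of 200 in clone 2 (6.23% of all genes) and 3 in the libraries labelled clone 4 (1.68%), and for 8 h against 0 h for 10 (7.42%) and 6 (4.09%). Zfp703 was called in all 4, with differences of 0.73, 0.55, 0.72 and 0.65 in that order, its WT fall being larger than that in either clone. Its WT change at 8 h against 2 h was -1.26, against -0.53 in clone 2 and -0.71 in the libraries labelled clone 4. These 4 differences share the WT 8 h libraries, so they do not support each other independently. Those against 0 h use the WT libraries that ranked the genes, and the last rests on 1 clone library at 0 h. Over the 200 genes, the median difference at 8 h against 2 h was -0.16 in clone 2 and -0.09 in the libraries labelled clone 4. The medians of all genes tested were -0.01 and -0.02. At 8 h against 0 h the medians were -0.10 and -0.15, against -0.03 and -0.01 for all genes. Whether the 200 genes as a group changed differently between the lines was not tested. The counts of calls moved with single libraries. For 8 h against 2 h in clone 2 the 12 became 4 without clone 2 2 h replicate 2, 4 without clone 2 8 h replicate 1 and 7 without clone 2 8 h replicate 2. The 3 of the libraries labelled clone 4 became 0 without either of their 8 h libraries, their 2 h replicate 1, WT 2 h replicate 2 or 4, or WT 8 h replicate 1, 2 or 3. They became 1 without their 2 h replicate 2 or WT 2 h replicate 1, and 5 without WT 2 h replicate 3. Where edgeR called 0, 18 to 29 genes had an unadjusted p under 0.05, and DESeq2 on all libraries called 2. For 8 h against 0 h, the 10 became 26 without WT 0 h replicate 3 or 4, 4 without clone 2 0 h replicate 2 and 3 without clone 2 8 h replicate 1. The 6 became 21 without WT 0 h replicate 3 or 4, 0 and 1 without the 8 h libraries labelled clone 4 (28 at an unadjusted p under 0.05 where edgeR called 0, and 6 by DESeq2 on all libraries), and 3 without WT 8 h replicate 3.

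Other zinc finger genes and partners give context. Of the 171 numbered Zfp genes ranked below 200, 144 passed the filter, and 70 of these rose and 4 fell in WT at 8 h against 2 h, where 21.2% of all genes rose and 21.3% fell. The other 27 did not pass. Of 34 tested Zbtb genes, which pair fingers with a BTB domain, 12 rose and 11 fell, and of 11 Zkscan genes, which carry a SCAN domain, 7 rose and 2 fell. Of 27 tested genes among 28 KRAB cofactors and their partners, 5 rose and 7 fell, shares of 18.5% and 25.9% that are near those of all genes. Uhrf1, which reads hemimethylated DNA, fell (-0.47), as did Atf7ip, a partner of SETDB1 (-0.45), while Smarcad1, a chromatin remodeller, rose (0.55), as did Mphosph8 of the HUSH complex (0.37). Trim28 itself was at -0.12 and Setdb1 at 0.06, neither called. Against WT over 2, 4 and 8 h, 5 of the 27 were higher and 12 lower in clone 2 (all genes 34.2% and 34.5%), and 3 and 12 in the libraries labelled clone 4 (24.5% and 25.7%). Trim28 differed by -0.07 in clone 2 (not called) and -0.20 in the libraries labelled clone 4. Cbx5, which encodes heterochromatin protein HP1α, was lower in both (-0.80 and -0.39), as was Chd3, a remodeller of the NuRD complex (-1.49 and -0.19).

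Across the 200 genes, the WT change at 8 h against 2 h had a Spearman correlation of -0.32 with the WT 0 h level and of -0.01 with gene length (n = 200 genes, a description, since the genes share libraries). The corresponding values with level were -0.18 in clone 2 and -0.19 in the libraries labelled clone 4.

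The RNA immunoprecipitation of CAPRIN1 is available here as a pair of the authors' deposited lists of gene symbols, with no values or direction, 1 named CNT vs RA and the other 2I vs RA. The first list held 20 of the 200 genes (10%, against 13.0% of all genes tested) and the second 21 (10.5%, against 14.9%). Genes apart were listed at 17.8% and 16.7%, and clustered genes at 3.64% and 5.45%. Of the 32 genes in either list, 9 were in both, among them Zfp609, Zfp207, Zfp292, Zfp592 and Zfp521. Zfp503, Zfp423, Zfp395 and Zfp644 were in the first list only, and Zfp57, Zfp219 and Zfp647 in the second only. The background of genes that could have entered either list is not given in the sources used here.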

How the data were processed

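Per the labels' protocols, libraries were made from total RNA with a stranded mRNA kit, with growth in retinoic acid and α-amanitin as described. The authors deposited 4 tables of raw counts per gene, 1 per time, with a further column of another kind that gives gene length in bases, and a pair of lists of gene symbols from the immunoprecipitation. Each table has 51520 lines, of which 110 repeated an identifier and were dropped. The submitters' processing notes name STAR 2.4.0.1 and FastQC 0.11.9 besides Cuffdiff, Cufflinks, DESeq2 and TopHat, and the build GRCm38 (mm10), without roles. Which program counted the reads, and whether by strand, is not given in the sources used here.

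With edgeR 4.0.16 under R 4.3.3, all 31 libraries were scaled by TMM, filtered by filterByExpr and fitted by robust quasi-likelihood as 12 line-by-time groups, which tested 15850 genes with 19 residual degrees of freedom. KO and WT were also compared within each time with genotype as the only term. The joint fit was tested on simulated data for WT at 8 h against 2 h only. Comparisons with 0 h, those of the clones and those of KO with WT were not tested in this way. Calls are F tests under a false discovery rate of 0.05 (Benjamini-Hochberg, over all genes tested), and SE is the log2 change divided by the square root of F. Positions and promoters came from RefSeq tables of GRCm38.p6, where all 200 genes had a position.

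Named genes are the 8 largest called changes either way in WT at 8 h against 0 h, the 6 either way between the clones, the 5 either way called alike in both clones, those of a role list, the 3 highest and the 3 on each side of rank 200. The genes and lists were chosen with earlier results of these data known. The alternatives were DESeq2 1.42.0 size factors and test, library totals, no filter, a replicate block, another grouping of libraries (both clones pooled as KO for changes in WT, otherwise a fit of only the libraries compared) and leaving out each library. Replicate numbers did not pair the libraries: 6 of 24 same-number correlations within WT exceeded 0.1. A split by KRAB domain was not made, because protein sequences were not used here.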

Additional observations from a re-analysis of the deposited data

Results flagged for a closer look

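In 8 of 132 groups of 4 WT libraries examined, 1 library stood apart from the other 3 by more than the 95% limit of Dixon's test, where chance gives about 1 in 20 groups. Zfp219 had 67.4 CPM in WT replicate 2 at 8 h, against 63.2 to 63.5 CPM. Zfp975 had 20.5 CPM in WT replicate 2 at 8 h, against 22.2 to 22.5 CPM. Zfp976 had 26.3 CPM in WT replicate 1 at 8 h, against 24.1 to 24.5 CPM. Zfp326 had 63.7 CPM in WT replicate 4 at 4 h, against 47.1 to 49.5 CPM. Zfp365 had 30.2 CPM in WT replicate 4 at 0 h, against 33.4 to 33.7 CPM. Zfp979 had 27.9 CPM in WT replicate 4 at 4 h, against 18.1 to 18.2 CPM. Zfp809 had 65.2 CPM in WT replicate 3 at 2 h, against 49.96 to 52.2 CPM. Zfp106 had 536.6 CPM in WT replicate 3 at 2 h, against 554.4 to 556.3 CPM.

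The change over time differed between a clone and WT for 31 gene and comparison pairs, by edgeR's test of the difference itself at a false discovery rate under 0.05. Each value is the log2 change in the clone minus that in WT. Those against 0 h use the WT libraries that ranked the genes, so they are a description. In clone 2 at 8 h against 0 h, the difference was negative for Zfp612 (-0.87), Zfp184 (-0.65), Zfp185 (-0.63) and Zfp57 (-0.39), and positive for Zfp395 (0.44), Zfp608 (0.45), Zfp346 (0.50), Zfp691 (0.60), Zfp647 (0.71) and Zfp703 (0.72). In the libraries labelled clone 4 at 8 h against 0 h, the difference was negative for Zfp870 (-0.67), Zfp809 (-0.59), Zfp207 (-0.53) and Zfp407 (-0.46), and positive for Zfp703 (0.65) and Zfp651 (0.76). That 0 h group is 1 library, assumed to vary like the other groups, and the 6 calls became 0 and 1 without its 8 h replicates and 0 with only the compared libraries in the fit (28 and 16 at an unadjusted p under 0.05 where edgeR called 0; DESeq2 6). Between 8 h and 2 h in clone 2, the difference was negative for Zfp612 (-0.88), Zfp160 (-0.77), Zfp827 (-0.75), Zfp961 (-0.68), Zfp324 (-0.63), Zfp451 (-0.51), Zfp317 (-0.48), Zfp462 (-0.41), Zfp568 (-0.39) and Zfp652 (-0.35), and positive for Zfp428 (0.70) and Zfp703 (0.73). Between 8 h and 2 h in the libraries labelled clone 4, the difference was negative for Zfp426 (-0.56), and positive for Zfp703 (0.55) and Zfp651 (0.73).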

How the results depend on the processing

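DESeq2 size factors and the DESeq2 test kept every count of calls within 1.5 times. With library totals, the difference in change at 8 h against 2 h in clone 2 had 19 calls in place of 12. In clone 2 against WT, library totals turned the log2 differences of Zfp57 to -0.033, Zfp148 to -0.030, Zfp131 to -0.015 and Zfp532 to -0.0063, where the median of all genes moved to -0.15. With no filter, KO against WT at 8 h had 24 calls in place of 38, and the 8 h against 0 h difference in the libraries labelled clone 4 had 12 in place of 6. With a replicate block, which the data did not pair (same-number correlations -0.15 to 0.50 within WT, with 3 of 16 WT libraries closest to their own number), the differences in change in clone 2 had 16 calls (8 h against 0 h) and 21 (8 h against 2 h). The block left 0 calls in KO against WT at each of 0, 2, 4 and 8 h (76, 53, 54 and 29 at an unadjusted p under 0.05, edgeR), where DESeq2 without the block called 43, 61, 67 and 49. With another grouping of libraries, the calls were 53 for WT at 8 h against 0 h, 85 for clone 2 and 56 for the libraries labelled clone 4 in the same contrast, 98 for those at 8 h against 2 h (49 of them clustered), 34 for WT genes apart at 8 h against 2 h, and 10 for the library labelled clone 4 against WT at 0 h. The differences in change then had 4 and 0 calls at 8 h against 0 h (16 at an unadjusted p under 0.05 for the 0, edgeR; DESeq2 6), and 50 and 24 at 8 h against 2 h, for clone 2 and the libraries labelled clone 4. Leaving out both libraries of a WT 0 h pair was added after seeing the data. Without replicates 3 and 4, the calls were 140 for WT at 8 h against 0 h, 129 for the library labelled clone 4 against WT and 103 for each 8 h against 0 h difference, and without replicates 1 and 2 KO against WT at 0 h had 0 (57 at an unadjusted p under 0.05, edgeR). The cause was not tested for any of these.

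Leaving out each library in turn gave 105 to 112 calls for WT at 8 h against 2 h (main 115), 49 to 59 for clone 2 (80) and 28 to 39 for the libraries labelled clone 4 (60). Among clustered genes these were 57 to 64, 22 to 27 and 13 to 18, and among genes apart 47 to 50, 27 to 32 and 13 to 21. At 8 h against 0 h the ranges were 77 to 102 in WT, 25 to 31 in clone 2 and 18 to 19 in the libraries labelled clone 4. KO against WT ranged over 10 to 67 at 0 h, 39 to 69 at 2 h, 43 to 75 at 4 h and 9 to 47 at 8 h. The differences in change ranged over 3 to 26 and 0 to 21 at 8 h against 0 h, and 4 to 13 and 0 to 5 at 8 h against 2 h, for clone 2 and the libraries labelled clone 4. After 0 h, total counts were 6.74 to 10.6 M in the clones and 3.46 (replicate 2 at 4 h) to 9.41 M in WT, and the part of depth or of the number of libraries in the counts of calls was not tested.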
